A study of Equus caballus with 21 samples.

Results

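Uterocalin, encoded by P19 (Entrez gene 100034213), and uteroglobin, encoded by SCGB1A1 (Entrez gene 100060053), were followed through the horse endometrium as 2 of the 24942 genes in the count table. Both were chosen by name, as secreted proteins of the uterus, with earlier results of these data known. Both were read in all 21 libraries. A further gene, LOC100033916, carries SCGB1A1 as a synonym in the RefSeq gene table, so its values are given beside those of SCGB1A1.

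Uterocalin is a lipocalin, a small barrel-shaped protein that binds hydrophobic ligands such as retinol and fatty acids, and in the mare it is secreted by the endometrial glands under the influence of progesterone and is taken up by the conceptus through its capsule. Uteroglobin is a small secretoglobin, first described in rabbit uterine fluid during early pregnancy, that forms dimers around a hydrophobic pocket, binds progesterone and inhibits phospholipase A2. The endometrial surface is lined by luminal epithelium, the glands below it by glandular epithelium, and the stroma is the connective tissue between the glands.

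RNA was sequenced from compartments cut by laser capture out of uterine biopsies of healthy warmblood mares, taken on day 12 of pregnancy or on day 12 of a control estrous cycle, which is called cyclic here. All mares had received human choriogonadotropin to induce ovulation, and the pregnant state followed insemination with fresh cooled semen in another cycle of the same mares. The groups were glandular epithelium of pregnant (4 libraries) and of cyclic mares (4), luminal epithelium of pregnant (4) and of cyclic mares (5), and stroma of pregnant (2) and of cyclic mares (2). Mares B, C, M and U gave glandular and luminal epithelium in both states, mare J gave cyclic luminal epithelium only, and stroma came from mares M and U in pregnancy and B and M in the cycle, so that the states of the stroma share mare M alone. A library is 1 captured sample of a biopsy, and no second capture measures the spread within a biopsy.

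Libraries held between 136259 and 1467510 counts, with 4072 to 11798 genes detected, and ribosomal RNA genes took 0.351% to 67.1% of the counts. The cyclic glandular and the pregnant luminal library of mare M had 0.351% and 0.453% ribosomal RNA counts, and the authors' second table of 19 libraries leaves both out. Levels are CPM, counts relative to a library size scaled by the trimmed mean of M-values (TMM) over all libraries. They are not divided by gene length, so the levels of the genes are not compared with each other. The sum of 8 fibroblast markers ran from 6021 to 13528 CPM without ribosomal RNA genes in the stromal libraries, against 473.3 to 1240 CPM in glandular and 884.4 to 7232 CPM in luminal libraries. The sum of 5 epithelial markers ran from 1201 to 9976 CPM in glandular and 584 to 3578 CPM in luminal libraries, against 85.8 to 941.8 CPM in stromal ones. FOXA2, a defining transcription factor of uterine glands in mice, had no count in any library. The other gland markers, CXCL14 and WFDC2, summed to 27.3 to 1276 CPM in glandular and 7.95 to 840.4 CPM in luminal libraries, ranges that overlapped, so the gland list did not separate the glandular from the luminal label. Leukocyte markers, of which 9 were in the table, summed to 211.9 to 989.3 CPM in glandular and 2201 to 10667 CPM in luminal libraries, with no count of NKG7 and MS4A1 in either. The sum of 6 markers of ciliated cells ran from 15.4 to 1361 CPM in glandular and 221.2 to 4001 CPM in luminal libraries. These sums moved with the contrast of glandular against luminal epithelium on which results below rest, and their part in those results was not tested. In such captured tissue, fewer cells of a type and less RNA per cell cannot be told apart.

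P19 was among the most heavily read genes of the glands in both states. In pregnant glandular epithelium it stood at 52508 CPM in mare B, 16621 in mare C, 14703 in mare M and 35618 in mare U (mean 29862 ± 17805, SD, n = 4). In cyclic glandular epithelium it stood at 39776 CPM in mare B, 18794 in mare C, 10528 in mare M and 22524 in mare U (mean 22905 ± 12314, SD, n = 4). The ranges overlapped almost wholly, and mare B was highest and mare M lowest in both states.

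P19 took 0.979% to 4.76% of all counts of a pregnant gland library and 0.7% to 4.47% of those of a cyclic one. The Wilson 95% intervals were 4.695% to 4.815% for pregnant mare B and 0.667% to 0.736% for cyclic mare M, the highest and the lowest of the 8. Ranked by reads without ribosomal RNA genes and not corrected for length, P19 was first in 6 of the 8 glandular libraries, at place 3 in pregnant mare M and at place 11 in cyclic mare M. A high place was not confined to glands. P19 held places 2 to 29 in cyclic and 28 to 542 in pregnant luminal libraries. In stroma it held places 14 and 58 in the cycle and 2 and 126 in pregnancy.

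**Figure D1:**
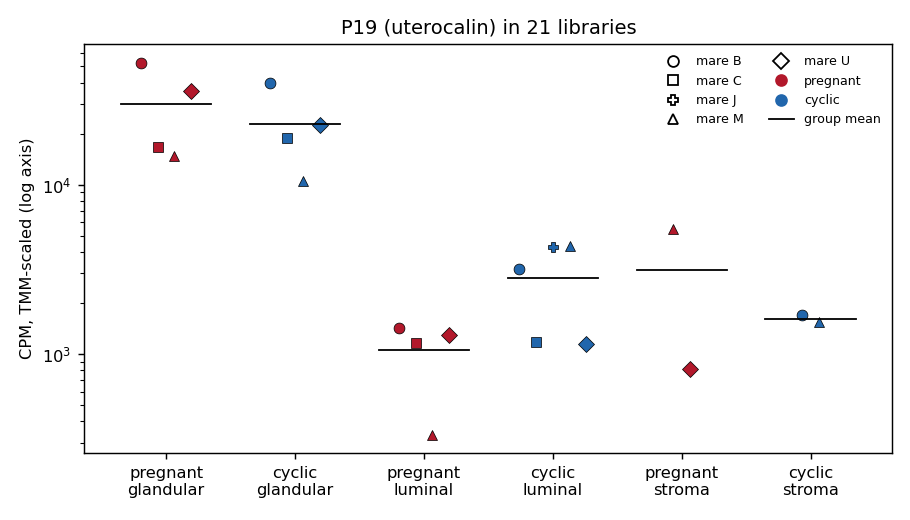
P19 in TMM-scaled CPM (log axis) in each of 21 libraries, with 1 point per library shaped by mare and a bar at the group mean. All 8 glandular libraries lie at 10528 CPM or above, and no luminal or stromal library exceeds 5464 CPM.

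The luminal lining held far less P19. Pregnant luminal epithelium had 1414 CPM in mare B, 1165 in mare C, 333.2 in mare M and 1299 in mare U (mean 1053 ± 490.5, SD, n = 4). Cyclic luminal epithelium had 3180 CPM in mare B, 1172 in mare C, 4265 in mare J, 4359 in mare M and 1144 in mare U (mean 2824 ± 1590, SD, n = 5). The cyclic values fell into a higher trio (B, J and M) and a lower pair (C and U), and the lower pair lay inside the pregnant range.

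Within a biopsy, glandular epithelium exceeded luminal epithelium in 4 of 4 pregnant mares, by 14.3-fold to 44.1-fold, and in 4 of 4 cyclic mares, by 2.42-fold to 19.7-fold. With the mare as a block, the log2 fold change of glandular over luminal epithelium was 4.77 ± 0.70 (SE) in pregnancy (27.3-fold, adjusted p = 9.71e-09) and 3.35 ± 0.54 in the cycle (10.2-fold, adjusted p = 6.1e-07; Benjamini-Hochberg-adjusted quasi-likelihood test of edgeR). P19 passed the test in both states, where 3.26% of 3988 genes tested passed in pregnancy and 2.61% of 4600 in the cycle. The median log2 fold change over all genes was 0.57 in pregnancy and -0.26 in the cycle, and P19 lay 4.2 and 3.61 above it on the log2 scale. Every glandular library lay above every luminal one of its state, as for 8.3% of genes tested in pregnancy and 3.17% in the cycle, and P19 did so also with CPM of raw totals or without ribosomal RNA genes.

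**Figure D2:**
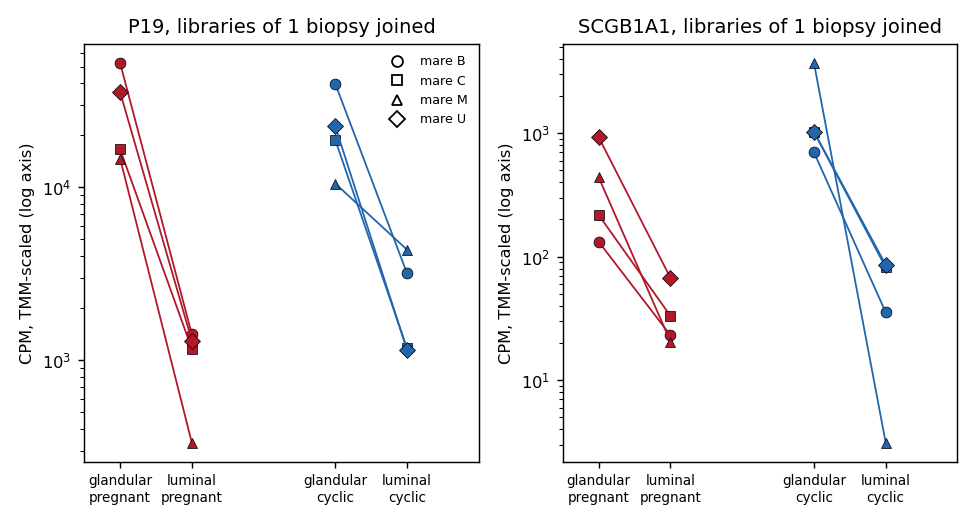
P19 (left) and SCGB1A1 (right) in TMM-scaled CPM (log axis), with a line joining the glandular and the luminal library of 1 biopsy, pregnant mares in red and cyclic mares in blue. Every line falls toward the luminal side, for P19 by 14.3-fold to 44.1-fold in pregnancy and by 2.42-fold to 19.7-fold in the cycle.

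Stroma carried P19 counts as well. Pregnant stroma had 5464 CPM in mare M and 815.4 in mare U, and cyclic stroma had 1693 CPM in mare B and 1543 in mare M. The pregnant library of mare M stood above the other 3 stromal libraries, and 67.1% of its counts were ribosomal RNA. Its epithelial marker sum was 289.7 CPM without ribosomal RNA genes, against 129.4 in pregnant mare U, 941.8 in cyclic mare B and 85.8 in cyclic mare M, and its sum of gland markers was 15.5 CPM, against 29.9, 6.00 and 475.6. The part of epithelial RNA in these stromal values was not tested.

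Over the 3 mares with stroma, glandular epithelium exceeded stroma by 3.85 ± 0.94 (SE) on the log2 scale (14.4-fold, adjusted p = 0.0115, Benjamini-Hochberg-adjusted quasi-likelihood test of edgeR, counts summed per mare), where 1.3% of 4830 genes passed. The sums were not weighted by state. Stroma of mare M joined its pregnant library (1175127 counts, 2911 of P19) and its cyclic one (138441 counts, 257 of P19), so the pregnant library made up most of it. Mare B entered with the cyclic state only and mare U with the pregnant state only. All genes together had a median of 1.07 in this comparison. Without mare B the value was 3.29 (adjusted p = 1) and without mare M it was 4.92 (adjusted p = 0.0609), and the value without mare U was 2.95, so the call was lost without mare B or mare M. Luminal epithelium and stroma differed by 0.21 ± 0.80 (SE; adjusted p = 0.97, edgeR), in an order that turned with the setting. The order of P19 levels was glandular epithelium above both other compartments, with luminal epithelium and stroma not separated beyond their spread.

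Between the states, no P19 difference passed the test. The log2 fold change of pregnant over cyclic glandular epithelium was 0.43 ± 0.77 (SE; adjusted p = 0.999, edgeR), against a median of 0.07 over all genes, and 3 of 4 mares were higher in pregnancy, with ratios of 0.884 to 1.58. In luminal epithelium the log2 fold change was -1.44 ± 0.55 (SE), 2.72-fold lower in pregnancy, with an unadjusted p of 0.00969 and an adjusted p = 0.339 from edgeR. Of the 4 paired mares, 1 was higher there in pregnancy, and the fall was uneven. The ratios were 0.0764 in mare M, 0.445 in mare B, 0.994 in mare C and 1.14 in mare U. The lowest ratio rested on the pregnant luminal library of mare M, with 65 P19 counts, which the authors' table of 19 libraries leaves out. An exact permutation test of luminal log2 CPM gave p = 0.111 (two-sided; 0.222 after Benjamini-Hochberg adjustment over 6 such tests), where 0.0159 is the smallest p that 4 against 5 libraries allow.

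The difference between the pregnancy effects, glandular minus luminal, was 1.48 ± 0.58 (SE) for P19 on the log2 scale (adjusted p = 0.867, edgeR), against a median of 1.28 over all 6884 genes tested. Relative to that median P19 stood at 0.20. The medians of the pregnancy effects themselves were 0.07 in glands and -0.04 in luminal epithelium, over 4816 and 4344 genes. Why the median of 1.28 lay apart from these was not tested, so values relative to it are uncertain. In stroma the pregnant over cyclic log2 fold change was 1.06 ± 1.19 (SE; adjusted p = 0.999, edgeR), and it turned to -1.03 without the pregnant library of mare M. For background, 0.437% of genes passed in luminal epithelium, 0.0623% in glandular epithelium, 0% in stroma and 0.0145% in the test of the difference.

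**Figure D3:**
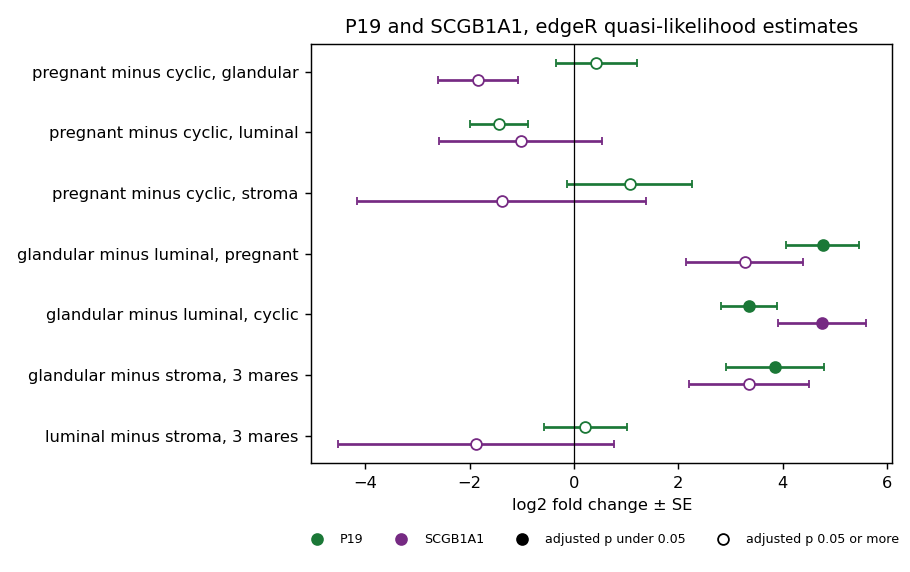
Log2 fold changes of P19 and SCGB1A1 with their SE in 7 comparisons, from edgeR's quasi-likelihood fits, with filled points where the adjusted p was under 0.05. The filled points are P19 in glandular over luminal epithelium of both states and over stroma (4.77, 3.35 and 3.85) and SCGB1A1 in glandular over luminal epithelium of cyclic mares (4.75).

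SCGB1A1 was also highest in the glands. In pregnant glandular epithelium it stood at 131.7 CPM in mare B, 216.9 in mare C, 437.7 in mare M and 923.4 in mare U (mean 427.4 ± 354.9, SD, n = 4). In cyclic glandular epithelium it stood at 699.5 CPM in mare B, 1020 in mare C, 3700 in mare M and 1028 in mare U (mean 1612 ± 1401, SD, n = 4). Pregnant mare U lay above cyclic mare B, so the groups overlapped by this pair of libraries.

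Each of the 4 mares had less glandular SCGB1A1 in pregnancy than in its cycle, with pregnant over cyclic ratios of 0.118 in mare M to 0.898 in mare U. The log2 fold change was -1.85 ± 0.77 (SE), 3.59-fold lower in pregnancy, with an unadjusted p of 0.018 that did not pass after adjustment (adjusted p = 0.455, Benjamini-Hochberg-adjusted quasi-likelihood test of edgeR). The exact permutation test of log2 CPM gave p = 0.0571 (two-sided, 0.171 after adjustment over 6 tests), where 0.0286 is the smallest p of 4 against 4 libraries. The cyclic library of mare M, with 548 SCGB1A1 counts, 222623 counts in all and 0.351% ribosomal RNA, stood far above the other cyclic glands on TMM-scaled CPM, and less so at 2470 against at most 1578 CPM without ribosomal RNA genes and TMM. Without it the log2 fold change was -1.07 (adjusted p = 1). On CPM of raw totals the groups did not overlap, at 119.3 to 764.1 in pregnant and 786.6 to 2462 in cyclic glands, where 1.27% of the genes tested were lower without overlap, and they overlapped on the other scales.

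SCGB1A1 was scarce in the luminal lining. Pregnant luminal epithelium had 23.1 CPM in mare B (9 counts), 33.1 in mare C (14), 20.5 in mare M (4) and 67.1 in mare U (26), a mean of 35.95 ± 21.5 (SD, n = 4). Cyclic luminal epithelium had 35.4 CPM in mare B (17 counts), 81.8 in mare C (91), 151.8 in mare J (81), 3.11 in mare M (1) and 85.8 in mare U (52), a mean of 71.6 ± 56.4 (SD, n = 5). The states overlapped, and the pregnant over cyclic log2 fold change was -1.03 ± 1.55 (SE; adjusted p = 0.973, edgeR).

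Glandular epithelium held more SCGB1A1 than luminal epithelium of the same biopsy in all 8 pairs. In pregnancy the ratios ran from 5.71 to 21.4 and the log2 fold change was 3.27 ± 1.12 (SE; 9.66-fold, adjusted p = 0.0814, Benjamini-Hochberg-adjusted quasi-likelihood test of edgeR), which did not pass. In the cycle the log2 fold change was 4.75 ± 0.85 (SE; 26.9-fold, adjusted p = 1.22e-05, edgeR), which passed. The lowest cyclic ratio was 12.0, and that of mare M, 1189, rested on 1 luminal count and had a 95% counting interval of 212.6 to 47057. In the 3 other mares alone the log2 fold change was 3.87 in the cycle (adjusted p = 1.97e-07, edgeR). The 4 cyclic pairs had a mean log2 ratio of 5.44 ± 3.2 (SD), a spread that the SE, shared between genes, does not measure. SCGB1A1 lay 2.70 above the median of all genes in pregnancy and 5.01 above it in the cycle, and the difference between the states, tested as the pregnancy effect of glands minus that of luminal epithelium, was -1.42 ± 1.24 (SE; adjusted p = 0.904, edgeR). All genes had a median of 1.28 in that test, and SCGB1A1 stood at -2.69 relative to it, with the same limit on that median as for P19.

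In stroma SCGB1A1 had 107 CPM in pregnant mare M (57 counts) and 18.9 in pregnant mare U (5), and 251.9 CPM in cyclic mare B (72) and 90.1 in cyclic mare M (15). The highest of these, cyclic mare B, was also the stromal library with the highest epithelial marker sum (941.8 CPM without ribosomal RNA genes), and the part of epithelial RNA in it was not tested. Glandular libraries lay above stromal ones of their state with no overlap, as for 18% of genes in pregnancy and 20.7% in the cycle, and the test did not pass. The log2 fold change over 3 mares was 3.35 ± 1.15 (SE; adjusted p = 0.152, edgeR) for glandular epithelium over stroma and -1.88 ± 2.65 (SE; adjusted p = 0.906, edgeR) for luminal epithelium over stroma, and for pregnant over cyclic stroma it was -1.39 ± 2.77 (SE; adjusted p = 0.999, edgeR). In order of mean level SCGB1A1 was highest in glandular epithelium, and by these tests the glands were separated from luminal epithelium in the cycle only and not from stroma, and luminal epithelium was not separated from stroma.

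LOC100033916, the other gene named uteroglobin by its synonym, had its counts listed apart from those of SCGB1A1. In pregnant glands it stood at 261.1 CPM in mare B, 173.8 in mare C, 297.5 in mare M and 310.2 in mare U (mean 260.7 ± 61.5, SD, n = 4). In cyclic glands it stood at 416.9 CPM in mare B, 1530 in mare C, 587.5 in mare M and 1076 in mare U (mean 902.6 ± 502.8, SD, n = 4). Every pregnant gland library lay below every cyclic one, as for 1.02% of the genes tested; without ribosomal RNA genes and TMM the groups overlapped.

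All 4 mares had less of LOC100033916 in pregnant than in cyclic glands, with ratios of 0.114 to 0.626. The log2 fold change was -1.76 ± 0.77 (SE; unadjusted p 0.0247, adjusted p = 0.519, edgeR), and the exact permutation test of log2 CPM gave p = 0.0286, the smallest possible (two-sided, 0.171 after adjustment over 6 tests). With the counts of both uteroglobin genes summed, pregnant glands averaged 688.2 ± 398.3 CPM and cyclic glands 2514 ± 1325 CPM (SD, n = 4 each), and the log2 fold change was -1.81 (adjusted p = 0.445, edgeR). Both genes were lower in pregnancy in 4 of 4 mares, by little for SCGB1A1 in mare U (ratio 0.898), and neither passed the test over all genes. How reads that match both genes were assigned is not known, so the 2 genes do not count as independent. The share of all genes lower in 4 of 4 mares was not computed.

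**Figure D4:**
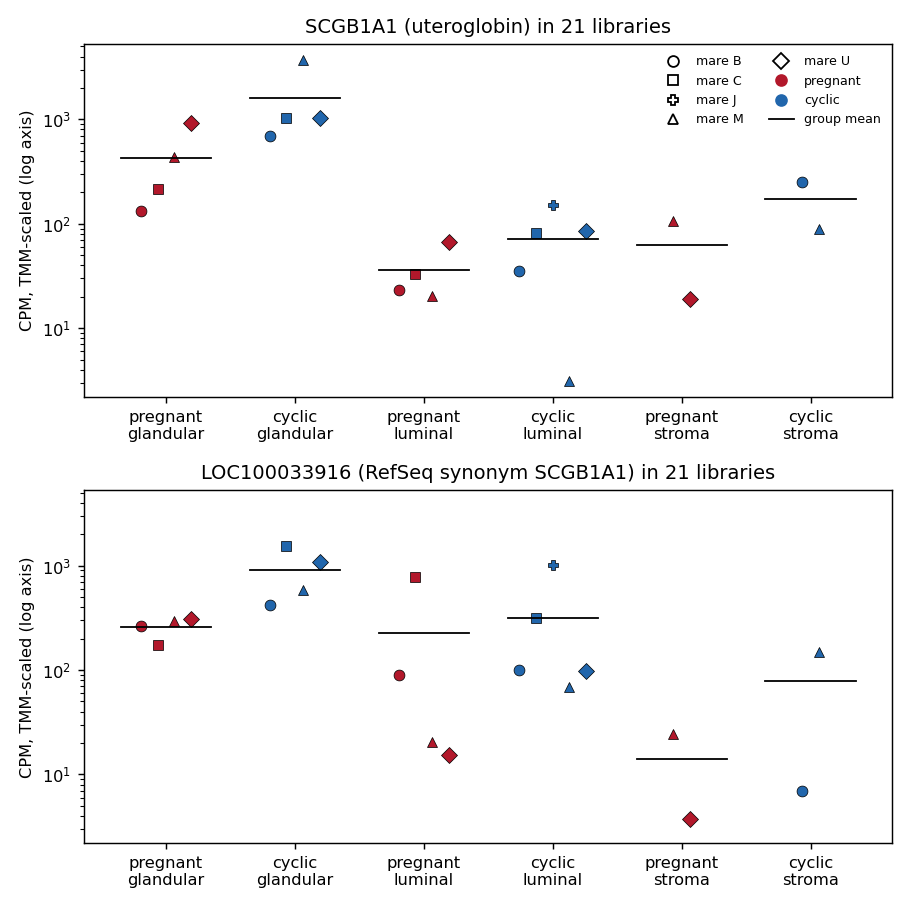
SCGB1A1 (top) and LOC100033916 (bottom) in TMM-scaled CPM (log axis) in 21 libraries, with 1 point per library shaped by mare and a bar at the group mean. Pregnant glands span 131.7 to 923.4 CPM of SCGB1A1 against 699.5 to 3700 in cyclic glands, and 173.8 to 310.2 CPM of LOC100033916 against 416.9 to 1530.

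In luminal epithelium LOC100033916 was uneven. Pregnant mare C had 770.5 CPM, against 89.7 in mare B, 20.5 in mare M and 15.5 in mare U, and cyclic mare J had 1008 CPM, against 99.9 in mare B, 314.7 in mare C, 68.5 in mare M and 97.4 in mare U. Its glandular over luminal log2 fold change was 2.04 ± 1.29 (SE; adjusted p = 0.569, edgeR) in pregnancy, with 3 of 4 mares higher in the glands, and 2.69 ± 0.80 (SE; adjusted p = 0.0393, edgeR) in the cycle, with 4 of 4 higher. That call was lost without mare B (2.90, adjusted p = 0.268), mare C (2.85, 0.287) or mare U (2.47, 0.541). Stroma had 24.4 and 3.78 CPM in pregnant mares M and U and 6.997 and 150.1 CPM in cyclic mares B and M, on 1 to 25 counts.

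The share of SCGB1A1 among the reads of both uteroglobin genes described how the pair split. It was 55.9% ± 17.1 in pregnant glands and 59.5% ± 20.2 in cyclic glands (SD, n = 4 each), and 39.0% ± 34.0 (n = 4) in pregnant and 22.2% ± 16.03 (n = 5) in cyclic luminal epithelium. Pregnant luminal mare C was at 4.12% (14 of 340 reads; Wilson 95% interval 2.47% to 6.79%), against 81.3% in pregnant luminal mare U (26 of 32; 64.7% to 91.1%). Within mares the glandular share exceeded the luminal share by 16.9 ± 24.5 percentage points in pregnancy (SD, 3 of 4 mares higher, exact sign-flip permutation p = 0.25, two-sided) and by 35.0 ± 34.4 points in the cycle (4 of 4 mares higher, exact p = 0.125, the smallest that 4 pairs allow). No source used here says how reads that match both genes were assigned, so this split is uncertain.

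**Figure D5:**
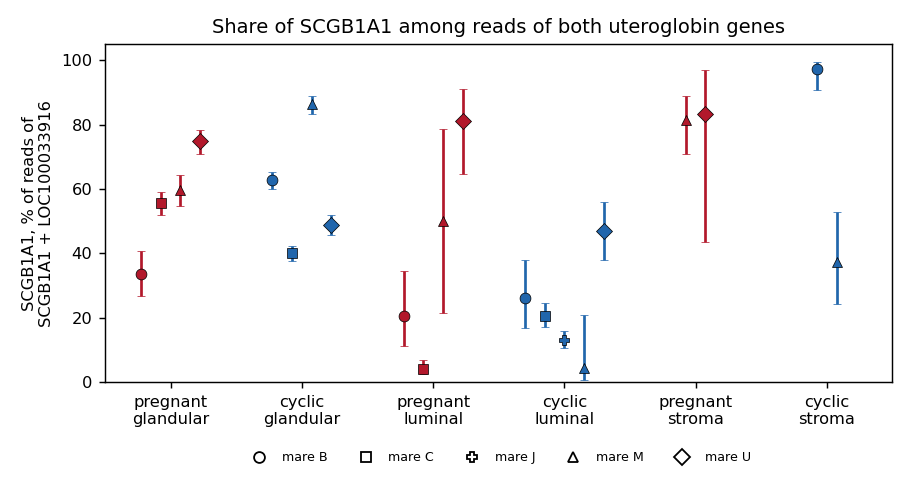
Share of SCGB1A1 among the reads of SCGB1A1 and LOC100033916 (percent) in 21 libraries, with Wilson 95% intervals that cover counting error only. Glandular libraries lie between 33.5% and 86.3%, and luminal libraries between 4.12% and 81.3%.

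For the counts in gene lists that follow, the shares of all genes that passed were these. In glands over luminal epithelium 1.73% rose and 1.53% fell in pregnancy, and 1.41% rose and 1.2% fell in the cycle. In glands over stroma 0.518% rose and 0.787% fell, and in luminal epithelium over stroma 1.74% passed, of which 1.17% rose and 0.569% fell. Between pregnant and cyclic mares, 0.345% rose and 0.0921% fell in luminal epithelium and 0.0415% rose and 0.0208% fell in glands.

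Relatives of either protein were looked for by gene symbol only, and few were found with a count. A relative listed under another name, as LOC100033916 is, would be missed, so a symbol not in the table does not show absence. Of the 12 secretoglobins looked for, 3 were in the count table, and SCGB1C1 and SCGB3A2 had no count in any library. Of 21 lipocalins looked for, 14 were in the table and 7 had a count, P19 among them. LGB1, a beta-lactoglobin gene that lies near P19 in the RefSeq gene order of the TB-T2T assembly together with LCN9 and LGB2, had 20 counts in 1 cyclic glandular library and none elsewhere, while LCN9 and LGB2 had none; LGB1 and LGB2 were chosen after their values were seen.

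APOD, apolipoprotein D, a carrier of arachidonic acid and progesterone, averaged 299.5 ± 224.3 CPM in pregnant and 355 ± 197.4 CPM in cyclic glands (SD, n = 4 each), against 1612 and 1650 CPM in pregnant stroma and 2925 and 6094 CPM in cyclic stroma. Its log2 fold change over stroma was -3.23 ± 0.93 (SE; adjusted p = 0.0422, edgeR) in glandular and -4.03 ± 0.97 (adjusted p = 0.00414) in luminal epithelium. Without mare B the adjusted p was 1 in glands (-3.07) and 0.165 in luminal epithelium (-4.37), and without mare M it was 0.664 (-2.76) and 0.438 (-2.96). P19 and APOD were the lipocalins that passed the test of glands against stroma, in opposite directions.

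RBP4, the plasma carrier of retinol, averaged 222.3 ± 197.6 CPM in pregnant and 151.5 ± 148.3 CPM in cyclic luminal epithelium (SD, n = 4 and n = 5), against 62.6 ± 68.7 CPM in pregnant glands and 1 count in all cyclic glands. Over the 4 cyclic mares with both compartments, 414 luminal counts against that 1 glandular count were a ratio of 407.9 (95% counting interval 72.8 to 16149), and RBP4 was lower in cyclic glands than in luminal epithelium (adjusted p = 0.00744, edgeR). The adjusted p was 0.353 without mare B, 0.0637 without mare C and 0.212 without mare U. LCN2, which binds bacterial siderophores, averaged 51.8 ± 85.3 CPM in pregnant and 7.16 ± 8.22 in cyclic glands, and 220.5 ± 436.0 CPM in pregnant and 43.5 ± 39.0 in cyclic luminal epithelium, and passed no test. PTGDS, a prostaglandin D synthase of the lipocalin family, had 17 counts in pregnant and 4 in cyclic glands and none elsewhere, and APOM and C8G had 4 counts each over all libraries.

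Of the receptors that take up lipocalins and uteroglobin, LRP2, megalin, was highest in the glands. LRP2 averaged 1096 ± 481.2 CPM in pregnant and 1042 ± 472 CPM in cyclic glands (SD, n = 4 each), against 18.6 ± 16.2 CPM in pregnant (n = 4) and 26.5 ± 23.2 in cyclic luminal epithelium (n = 5). Its glandular over luminal log2 fold change was 5.92 ± 0.99 in pregnancy (adjusted p = 7.95e-07) and 5.15 ± 0.95 in the cycle (adjusted p = 2.55e-05, edgeR), and that of glands over stroma 4.61 ± 1.11 (adjusted p = 0.0105). The cyclic call was lost without mare U (4.75, adjusted p = 0.0789), and that against stroma without mare B (4.16, 0.601) or mare M (5.67, 0.126). Of the receptor list, 2 genes were tested in pregnancy, 3 in the cycle and 4 against stroma. LRP2 alone rose in glands each time, and none fell. Among the others tested, DAB2 and LRPAP1 are not themselves receptors. CUBN, cubilin, which binds megalin and uteroglobin in kidney cells of other mammals, averaged 30.7 ± 25.9 CPM in pregnant and 24.8 ± 24.4 in cyclic glands and 52.9 ± 104.2 CPM in pregnant and 90.3 ± 62.3 in cyclic luminal epithelium, and passed no test.

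Among genes that handle retinoids, none of 6 tested passed in glands over luminal epithelium in pregnancy, and RBP4 fell in the cycle, as given above. ALDH1A1, which makes retinoic acid, averaged 344.4 ± 257.9 CPM in pregnant and 1019 ± 622.1 CPM in cyclic glands and 61.9 ± 62.9 CPM in pregnant and 511.9 ± 230.0 CPM in cyclic luminal epithelium (SD, n = 4, 4, 4 and 5). Its pregnant over cyclic log2 fold changes were -1.55 ± 0.77 in glands (adjusted p = 0.668) and -3.06 ± 0.87 in luminal epithelium (adjusted p = 0.0723, edgeR).

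Among 8 other lipid carriers tested in the cycle and 7 in pregnancy, 1 fell in glands against luminal epithelium in each state, namely GM2A, the activator that lifts gangliosides out of membranes for degradation. GM2A averaged 58.0 ± 65.2 CPM in pregnant and 12.9 ± 9.01 in cyclic glands (SD, n = 4 each), against 3306 ± 3178 CPM in pregnant (n = 4) and 693.4 ± 422.8 in cyclic luminal epithelium (n = 5). The log2 fold changes were -6.90 ± 0.87 in pregnancy (adjusted p = 3.6e-12) and -5.75 ± 1.03 in the cycle (adjusted p = 1.35e-05, edgeR). GM2A was also the 1 of 9 that rose in pregnant luminal epithelium, by 2.30 ± 0.56 (adjusted p = 0.0221). With the mare as a block the value was 1.96 and did not pass (adjusted p = 0.158, edgeR). The rise also lost its call without pregnant mare B (1.67, adjusted p = 0.308) or U (2.02, 0.104) and without cyclic mare B (2.31, 0.0708), C (2.06, 0.0888) or M (2.41, 0.126), and the cyclic difference between compartments did so without mare U (-5.66, 0.059).

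PLA2G2A, a secreted phospholipase A2 and so of the enzyme class that uteroglobin inhibits, averaged 587.1 ± 393.2 CPM in pregnant and 1061 ± 1109 CPM in cyclic glands (SD, n = 4 each), against 126.4 ± 230.3 CPM in pregnant and 122.5 ± 114.8 in cyclic luminal epithelium. It rose in glands over luminal epithelium in pregnancy (3.89 ± 1.19, adjusted p = 0.0361, edgeR), 1 of 2 phospholipases tested, though not without mare B (2.75, adjusted p = 0.466), mare C (3.03, 0.572), mare U (4.46, 0.0587) or with no block (2.22, 0.22), and had 2.29 ± 0.90 in the cycle (adjusted p = 0.187). ESR1, the estrogen receptor, had glandular over luminal log2 fold changes of 2.72 ± 1.53 in pregnancy (adjusted p = 0.492) and 2.02 ± 1.16 in the cycle (adjusted p = 0.531). None of 3 steroid receptor genes tested in pregnancy and 4 in the cycle passed. PGR, the progesterone receptor, was not among the genes tested between these compartments. It averaged 58.9 ± 58.4 CPM in pregnant and 51.2 ± 59.0 in cyclic glands, against 2.46 ± 2.85 in pregnant and 22.95 ± 41.7 in cyclic luminal epithelium.

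Other uterine secretions split between the compartments. SPP1, osteopontin, an adhesive glycoprotein, averaged 1076 ± 297.6 CPM in pregnant and 4760 ± 6606 CPM in cyclic glands, against 19.5 ± 8.46 CPM in pregnant and 45.6 ± 43.3 in cyclic luminal epithelium, and rose in glands in both states (5.78 ± 0.97 and 6.50 ± 0.78, adjusted p = 1.06e-06 and 3.69e-13, edgeR). STC1, stanniocalcin, a calcium-regulating hormone, was higher in the lining, with 332.8 ± 186.9 CPM in pregnant and 259.7 ± 215.9 in cyclic glands against 8006 ± 3319 CPM in pregnant and 2655 ± 1046 in cyclic luminal epithelium (log2 -4.68 ± 0.71 and -3.89 ± 0.72, adjusted p = 4.03e-08 and 2.6e-05, edgeR). STC1 lost its cyclic call without mare U (-3.78, adjusted p = 0.086). Of 8 secretion genes tested in pregnancy 1 rose and 4 fell in glands, and of 6 tested in the cycle 1 rose and 1 fell. FGF9, a growth factor of the endometrium, rose in pregnant luminal epithelium (3.90 ± 0.95, adjusted p = 0.0214, edgeR), 1 of 9 secretion genes tested there, but not with the mare as a block (3.56, adjusted p = 0.206). Its adjusted p was 0.0937 and 0.267 without pregnant mares B and C, and 0.0646, 0.126 and 0.079 without cyclic mares J, M and U. Against stroma, SPP1 rose in glands (6.04 ± 1.06, adjusted p = 6.89e-05) and CLU, the lipid-binding chaperone clusterin, fell (-5.57 ± 1.38, adjusted p = 0.0117), while GM2A (5.99 ± 1.07) and STC1 (5.26 ± 0.97) rose in luminal epithelium (adjusted p = 1.57e-05 and 2.83e-05, edgeR). Without mare B the adjusted p was 0.0938 for SPP1 in glands, 0.131 for CLU and 0.0601 for STC1, without mare M it was 0.0609 for SPP1 and 0.424 for CLU, and without mare U it was 0.0968 for CLU. In glandular epithelium no gene of any of these lists passed the test of pregnant against cyclic mares, and none did in stroma.

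Medians of the log2 fold changes of glandular over luminal epithelium describe these lists as wholes, each over the few genes tested. The receptors that take up lipocalins stand here for the genes of that list, in which DAB2 and LRPAP1 are not themselves receptors. In pregnancy they were 1.64 for 3 lipocalins, 3.37 for 6 retinoid genes, 0.21 for 7 lipid carriers, 0.93 for 2 receptors, 3.27 for 2 phospholipases, 0.53 for 3 steroid receptors and -4.94 for 8 secretions, against 0.57 over all genes. In the cycle they were 1.25 for 3 lipocalins, 0.43 for 4 retinoid genes, -0.52 for 8 lipid carriers, -2.64 for 3 receptors, 2.30 for 2 phospholipases, 0.26 for 4 steroid receptors and -2.04 for 6 secretions, against -0.26 over all genes. The retinoid, lipocalin and phospholipase medians lay above that of all genes in both states, and the secretion median below it.

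Across the 21 libraries, P19 was most like F5, coagulation factor V, in its order of levels, with a Spearman rho of 0.871, followed by LOC100069287 (0.861), SELENBP1, a selenium-binding protein (0.851), LOC100630794 (0.85) and LOC100630227 (0.837), out of 9789 genes. Libraries with no count of a gene were not held as ties in these rho values. On the authors' deposited signal, where they tie, the order of the genes was the same, from 0.871 for F5 to 0.834 for LOC100630227. F5 averaged 2629 ± 1086 CPM in pregnant and 1846 ± 505.9 CPM in cyclic glands (SD, n = 4 each), against 36.3 ± 14.1 CPM in pregnant (n = 4) and 60.1 ± 44.0 in cyclic luminal epithelium (n = 5). These points share their libraries, scaling and compartments. Within the 8 glandular libraries the rho of P19 with F5 was 0.357, and within the 9 luminal ones 0.383. In the glandular libraries it was 0.357 with LOC100069287, 0.31 with SELENBP1, 0.238 with LOC100630794 and -0.357 with LOC100630227.

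SCGB1A1 was most like AIDA, an axin interactor, with a rho of 0.865, followed by CFTR, a chloride channel (0.856), EPYC, a proteoglycan of cartilage (0.856), ALDH7A1, an aldehyde dehydrogenase (0.834), and LOC100630794 (0.831). The values of CFTR and EPYC are uncertain, because libraries with no count were not held as ties. On the deposited signal, where such libraries tie, the order was AIDA (0.879), ALDH7A1 (0.834), LOC100630794 (0.831), CFTR (0.826) and EPYC (0.824). AIDA averaged 697.7 ± 320.2 CPM in pregnant and 1373 ± 485.7 CPM in cyclic glands, against 96.4 ± 120.9 CPM in pregnant and 151.5 ± 73.7 in cyclic luminal epithelium. CFTR had no count in any of the 9 luminal libraries. Within the 8 glandular libraries the rho with SCGB1A1 was 0.619 for AIDA, 0.357 for CFTR and 0.19 for EPYC. It was 0.476 there for ALDH7A1 and 0.167 for LOC100630794. Within the 9 luminal libraries the rho with SCGB1A1 was 0.767 for AIDA, 0.683 for ALDH7A1 and 0.441 for LOC100630794. CFTR had no luminal count to rank, and EPYC hardly any. P19 and SCGB1A1 had a rho of 0.742 over the 21 libraries, with SCGB1A1 at place 50 among the genes most like P19. Within the 8 glandular libraries their rho was -0.405 and within the 9 luminal ones -0.05, while SCGB1A1 and LOC100033916 had 0.857 and 0.533.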

How the data were processed

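RNA came from laser-captured endometrium, was amplified with a single-cell kit, and some libraries, which the labels do not name, were amplified once more, per the labels' protocols. The submitters' processing notes name Trimmomatic 0.32.2 and HISAT2 2.0.3. They and the labels do not state how reads were counted or shared between genes, nor the genome build and annotation. Raw read counts for 24942 gene IDs in 21 libraries, as deposited, were the input of all main tests. The authors also deposited signal, which is counts scaled to an effective library size, for 10307 genes in 21 libraries and 10410 genes in 19, and these served only as alternatives. Symbols came from a RefSeq gene table (TB-T2T assembly) by Entrez ID, and 21420 IDs (85.9%) matched.

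Counts were tested in R 4.3.3 with edgeR 4.0.16 (TMM factors; filterByExpr with a minimum count of 10 and a total of 15; quasi-likelihood test; Benjamini-Hochberg adjustment over all genes tested; threshold 0.05). State comparisons used unpaired groups, glandular against luminal epithelium used the mare as a block, and stroma was compared with the epithelia on counts summed per mare over the biopsies that gave stroma. The SE is the log2 fold change divided by the square root of F, so it rests on spread shared between genes. Log2 CPM used a prior count of 2. The scripts were tested on simulated data. Alternatives used DESeq2 1.42.0 and limma 3.58.1, the second also on log2(deposited signal + 1), with a pseudocount of 1. Levels and figures were made in Python 3.11.15.

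Mare letters in the labels name the same animal in both states and all compartments, and so pair the libraries; the correlations of paired deviations ran from -0.0363 to 0.0955. The labels hold 5 mares. Wilson and counting intervals and the floor of 3 counts cover counting error only, because reads were amplified and carry no molecular identifiers. Genes were named by a rule: both members in all libraries, the 5 genes of highest Spearman rho with each, paralogs with a count, and from each list the genes of smallest p in the comparisons of the epithelia; in comparisons with stroma and of pregnancy effects, only those that passed are named, and a few of the smallest p that did not pass are left out. A gene that the rule named is not reported here. The members and lists were chosen with earlier results of these data known. No sequence was used here.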

Additional observations from a re-analysis of the deposited data

Results flagged for a closer look

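In 3 of 12 groups of 4 or 5 libraries examined for P19, SCGB1A1 and LOC100033916, 1 library stood apart from the others by Dixon's criterion. For normally distributed values, chance meets this criterion in about 1 of 20 groups. Here it was applied to CPM without a log, and the 12 groups hold 3 genes in the same libraries, so that rate need not hold. SCGB1A1 was 3700 CPM in cyclic glandular epithelium of mare M, where the next library had 1028 CPM. This held on TMM-scaled CPM alone: without ribosomal RNA genes and TMM the library had 2470 CPM and the next 1578, and on CPM of raw totals 2462 and 1369, both under the criterion. LOC100033916 was 770.5 CPM in pregnant luminal epithelium of mare C, where the next had 89.7 CPM, and 1008 CPM in cyclic luminal epithelium of mare J, where the next had 314.7 CPM. Both of these held on all 3 scales.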

How the results depend on the processing

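Under the alternatives run, P19 stayed higher in glandular than in luminal epithelium in 14 of 14 for each state (1 of them sums the states), with log2 fold changes of 3.74 to 5.09 in pregnancy and 3.02 to 4.03 in the cycle, and it passed the test in 13 of 14. The exceptions used the deposited signal: 3.30 in the cycle with the table of 21 libraries (adjusted p = 0.17, limma) and 4.61 in pregnancy with that of 19 (adjusted p = 0.573, limma). SCGB1A1 lost its call in the cycle there, with 5.32 (adjusted p = 0.266, 21 libraries) and 3.81 (0.208, 19 libraries). In pregnancy SCGB1A1 passed with DESeq2 (3.17, adjusted p = 0.0013) and with no replicate block (3.51, edgeR adjusted p = 0.024), and against stroma with DESeq2 (3.09, adjusted p = 0.0366). With both states summed per mare, which is no result of pregnancy alone, it was 4.16 (edgeR adjusted p = 2.96e-12). The cause of these changes was not tested.

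Differences that passed no test turned in sign: P19 in glands by state to -0.0044 with limma-voom, and P19 in luminal epithelium against stroma to -0.22 with limma-voom and -0.027 with no replicate block. Leaving out 1 library or mare gave -0.0097 to 0.83 for P19 in glands by state, -1.03 to 1.86 in stroma by state, -0.078 to 0.81 for luminal epithelium against stroma and 2.95 to 4.92 for glands against stroma. The cause was not tested, beyond that fewer samples entered.

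With the mare as a replicate block, pregnant over cyclic values were 0.38 for P19 and -1.97 for SCGB1A1 in glands, and -1.03 and -0.079 in luminal epithelium; no call of either gene changed, GM2A and FGF9 lost theirs in luminal epithelium, and the genes called were 0 in glands (3 without the block) and 12 in luminal epithelium (19). No paired analysis of the states was possible in stroma because they share only mare M. Counts of genes called also moved by over 1.5 times, from 120 to 419 (glands against luminal epithelium, cycle), 130 to 614 (pregnancy), 63 to 526 (glands against stroma), 61 to 474 (luminal epithelium against stroma), 19 to 83 (state, luminal) and 1 to 78 (difference of pregnancy effects) with DESeq2, and from 3 to 34 in glands and 0 to 2 in stroma by state with no filter on low counts. Counts fell under other settings. Over all alternatives run, the lowest count was 0 for glands against luminal epithelium in each state, and 0 for glands against stroma. It was 3 for luminal epithelium against stroma and 0 for the states of luminal epithelium. Leaving out 1 mare gave as few as 14 (cycle) and 39 (pregnancy) for glands against luminal epithelium.

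For LOC100033916, leaving out 1 library or mare gave -2.87 to 0.58 for the states of luminal epithelium and -1.39 to 0.37 for the difference of pregnancy effects, positive without cyclic mare J and without mare C. Summing both uteroglobin genes and setting levels on other scales were chosen after seeing the data. With 1 to 91 counts, luminal SCGB1A1 limits what could be detected there. The p-values of edgeR, like its SE, rest on spread shared between genes and not on that of the gene alone. All tests come from libraries of at most 5 mares.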
